A study of Macaca mulatta with 10 samples.

Results

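Voltage-gated sodium channels and ankyrin G, the scaffold that anchors them, were followed across 5 nuclei of the dorsal thalamus of the adult rhesus monkey (Macaca mulatta). The members were every probe set annotated to exactly one of SCN1A, SCN2A, SCN3A, SCN9A, SCN3B and ANK3. These 6 genes, of 11963 in all, had 9 of the 19065 probe sets that carried a single gene symbol and were not controls. SCN1A, SCN2A, SCN3A and SCN9A had 1 probe set each, SCN3B had 2 and ANK3 had 3. Micro-punches were taken from untreated monkeys, and their total RNA was hybridised to human Affymetrix arrays. The nuclei were labelled Ventral Thalamus, Pulvinar, Centre Median, Anterior Thalamus and Medial Thalamus, with 2 arrays each, numbered replicate 1 and replicate 2. Whether a nucleus was sampled from different animals is not given in the labels, so every p-value measures the spread between these arrays, which may be technical.

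A voltage-gated sodium channel consists of a large alpha subunit that forms the pore and smaller beta subunits that adjust gating and placement. The channels carry the rising phase of the action potential. Ankyrin G gathers them at the axon initial segment and at nodes of Ranvier, by binding the channels on one side and the spectrin cytoskeleton on the other. In rodents, SCN1A is the alpha subunit best known from fast-spiking neurons, SCN3A is most abundant before birth, and SCN2A is the channel of unmyelinated axons and immature axon initial segments that other alpha subunits later replace at nodes. SCN9A is best known from peripheral sensory neurons.

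Values are log2(RMA intensity + 1), called log2 levels below. RMA is a method that subtracts background, normalises arrays together and merges the probes of a probe set. Levels of different probe sets cannot be ranked as amounts of RNA, because each has its own probes, and human probes may bind monkey transcripts unequally. The median intensity of the arrays was 94.2 to 100.6. The thalamic transcription factor TCF7L2 averaged 12.50 and SLC17A6, the vesicular glutamate transporter of relay neurons, averaged 10.78 over the 10 arrays, so the defining genes of thalamic relay tissue were present. Arrays with the same replicate number correlated across probe sets at 0.981 to 0.992, above the 0.943 to 0.962 of arrays from the same nucleus. Comparisons come from limma fits both without a block and with a block for the replicate number, a model term that removes the mean difference between the replicate sets. The fit without the block was set as the main one, because no methods name a block, and the fit with it is an alternative. The main fit called none of the members in any comparison of nuclei. Every member called between nuclei below was called with the block.

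Among the alpha subunits, the SCN1A signal was set more by the replicate set than by the nucleus. Among replicate 2 arrays its log2 level was 9.56 in Ventral Thalamus, 8.75 in Pulvinar, 8.43 in Centre Median, 8.38 in Anterior Thalamus and 7.85 in Medial Thalamus. Among replicate 1 arrays it was 6.88 in Ventral Thalamus, 6.85 in Pulvinar, 6.89 in Centre Median, 5.63 in Anterior Thalamus and 5.43 in Medial Thalamus. All 5 replicate 2 arrays lay above all 5 replicate 1 arrays, and Medial Thalamus was lowest in both sets. Ventral Thalamus was highest in replicate 2 but level with Pulvinar and Centre Median in replicate 1.

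The mean SCN1A log2 level was 8.59 in replicate 2 and 6.34 in replicate 1, a 4.78-fold difference (log2 difference 2.26, SE 0.151, adjusted p = 4.66e-07 by limma with the block). Only 8 of the 19065 probe sets differed more between the sets, and the median size over all probe sets was 0.23. The replicate sets held 77.2% of the SCN1A sum of squares over the 10 arrays, the nuclei 19.5%. For the median probe set these shares were 48.8% and 22.9%. What separates the 2 sets is not given in the labels. The lowest intensity was 9.49 to 9.55 on replicate 2 arrays and 11.97 to 12.30 on replicate 1 arrays. The log2 excess of the actin control's 3' over its 5' signal was 1.15 to 1.64 in replicate 2 and -0.09 to 1.22 in replicate 1. The part of these differences in the SCN1A shift was not tested.

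**Figure D1:**
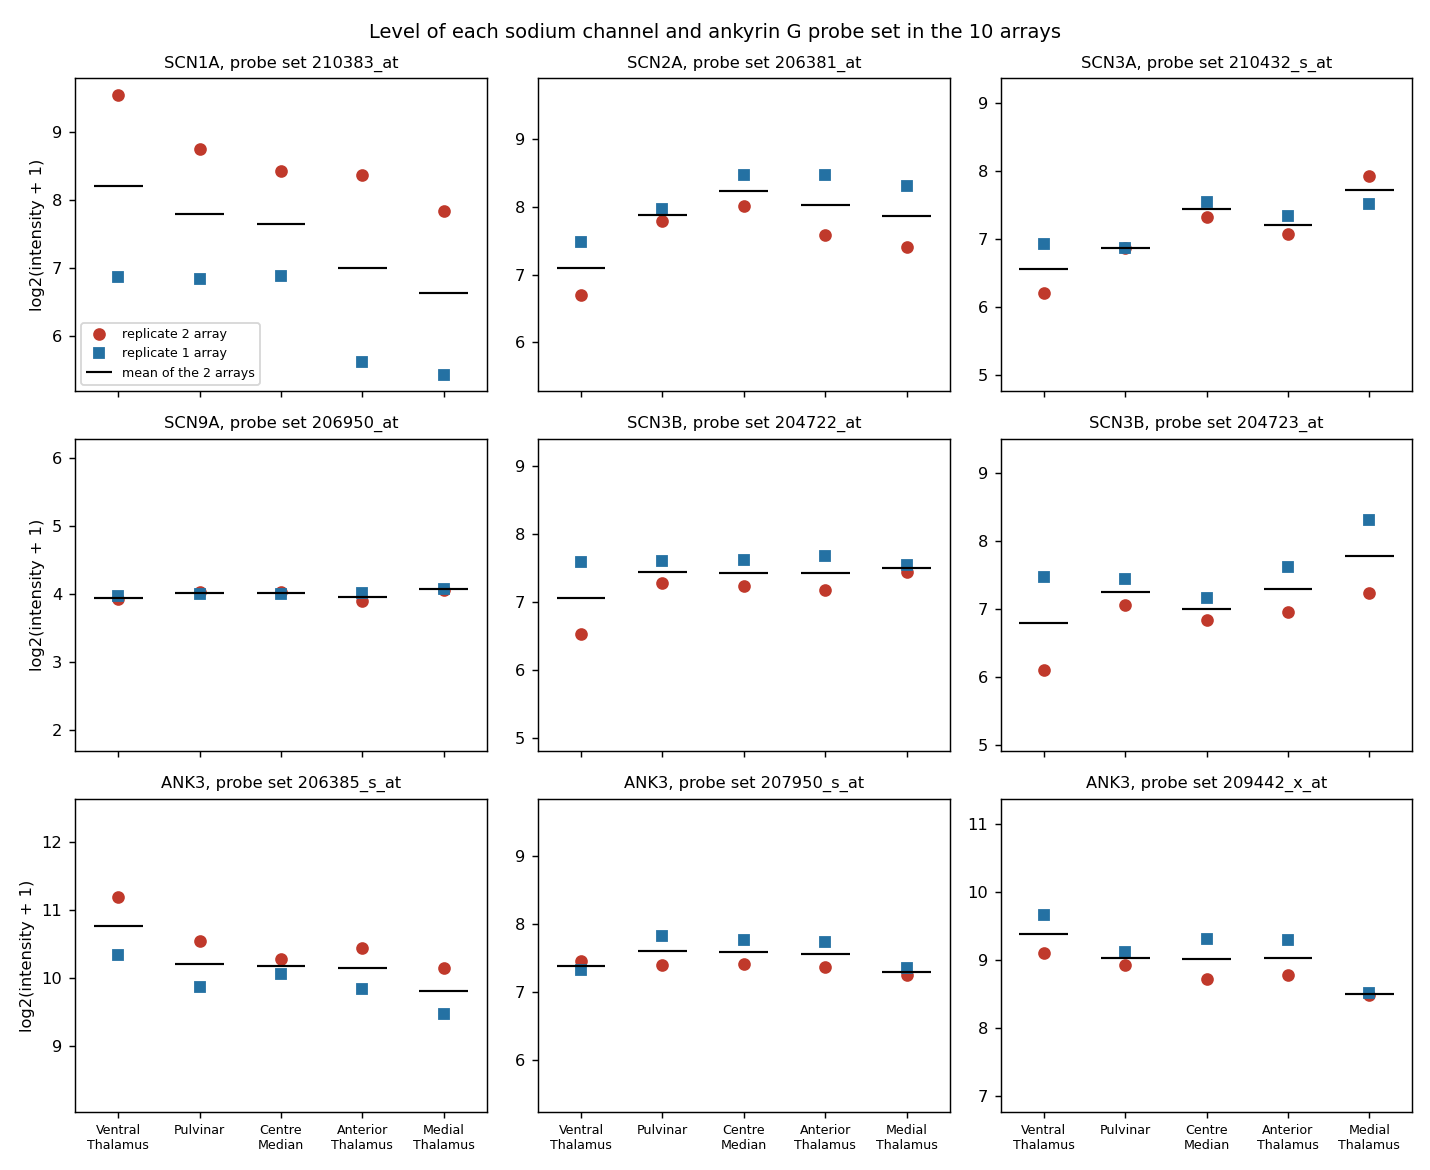
Log2(intensity + 1) of the 9 probe sets (vertical axes, each spanning the same number of log2 units) in the 5 nuclei (horizontal axis). Circles are replicate 2 arrays, squares replicate 1 arrays and bars the mean of both. SCN1A and ANK3 probe set 206385_s_at are higher in replicate 2, SCN2A is lowest in Ventral Thalamus in both sets, and SCN9A is flat between 3.90 and 4.08.

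Across nuclei, mean SCN1A levels ran in the order Ventral Thalamus (8.22 ± 1.89), Pulvinar (7.80 ± 1.34), Centre Median (7.66 ± 1.09), Anterior Thalamus (7.0 ± 1.94) and Medial Thalamus (6.64 ± 1.71; SD, n = 2 each). Neighbours in this order were not called in either fit. The widest step, Centre Median over Anterior Thalamus, was 0.65 with the block (SE 0.239, unadjusted p = 0.0176, limma adjusted p = 0.612). The ends of the order were called with the block. Ventral Thalamus exceeded Medial Thalamus by 1.58 (SE 0.239, limma adjusted p = 0.0153), a 2.98-fold difference that was 1.71 within replicate 2 and 1.44 within replicate 1. Without the block the adjusted p was 1.00. With the block it was 0.063 when Medial Thalamus replicate 1 was left out and 0.14 when the replicate 2 array of Ventral Thalamus was left out.

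Set against the mean of the other 4 nuclei, SCN1A differed by 0.94 in Ventral Thalamus (SE 0.189, 95% interval 0.53 to 1.35, adjusted p = 0.0667 with the block). The difference was 1.2 within replicate 2 and 0.68 within replicate 1. This missed the threshold of 0.05 over all probe sets, and it passed at 0.049 when 1 probe set per gene was tested. In Medial Thalamus the difference was -1.03 (SE 0.189, interval -1.44 to -0.62, adjusted p = 0.0661 with the block), with -0.93 within replicate 2 and -1.13 within replicate 1. Anterior Thalamus stood 0.58 below the rest (difference -0.58, adjusted p = 0.843 with the block).

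SCN2A, an alpha subunit of excitatory neurons, had its lowest level in Ventral Thalamus in both sets. Among replicate 2 arrays the log2 level was 6.70 in Ventral Thalamus, 7.79 in Pulvinar, 8.01 in Centre Median, 7.59 in Anterior Thalamus and 7.41 in Medial Thalamus. Among replicate 1 arrays it was 7.48 in Ventral Thalamus, 7.97 in Pulvinar, 8.46 in Centre Median, 8.47 in Anterior Thalamus and 8.31 in Medial Thalamus. Each Ventral Thalamus array was the lowest of its set, although the replicate 1 array overlapped the replicate 2 arrays of the other nuclei.

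With the block, SCN2A was 1.88-fold lower in Ventral Thalamus, at 7.09 ± 0.55 (SD, n = 2), where the other 4 nuclei together averaged 8.0 (difference -0.91, SE 0.135, limma adjusted p = 0.0231). The difference was -1.0 within replicate 2 and -0.82 within replicate 1. SCN2A was the 1 of 9 member probe sets called in this comparison, in which 0.336% of all probe sets were called with the block in either direction. Without the block limma called 0 of 9 members and 0% of all probe sets, and the adjusted p of SCN2A was 1.00. At an unadjusted p under 0.05 that fit had 2 of 9 members, beside 1.4% of all probe sets. Leaving out 1 array raised the blocked adjusted p to 0.071 for Centre Median replicate 2, 0.097 for the first Ventral Thalamus array and 0.242 for the second.

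Centre Median held the highest mean SCN2A level, 8.24 ± 0.32, followed by Anterior Thalamus (8.03 ± 0.62), Pulvinar (7.88 ± 0.13), Medial Thalamus (7.86 ± 0.63) and Ventral Thalamus (7.09 ± 0.55; SD, n = 2 each). The step from Medial to Ventral Thalamus was 0.77 and missed the threshold with the block (adjusted p = 0.063), and the other neighbours lay within 0.21 of each other. Centre Median exceeded Ventral Thalamus by 1.15 with the block (SE 0.171, adjusted p = 0.0158), a contrast in which 0.236% of all probe sets were called. That call was lost without either array of either nucleus, at adjusted p of 0.065 to 0.232. Against the rest, Centre Median differed by 0.52 (SE 0.135, adjusted p = 0.281 with the block).

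**Figure D2:**
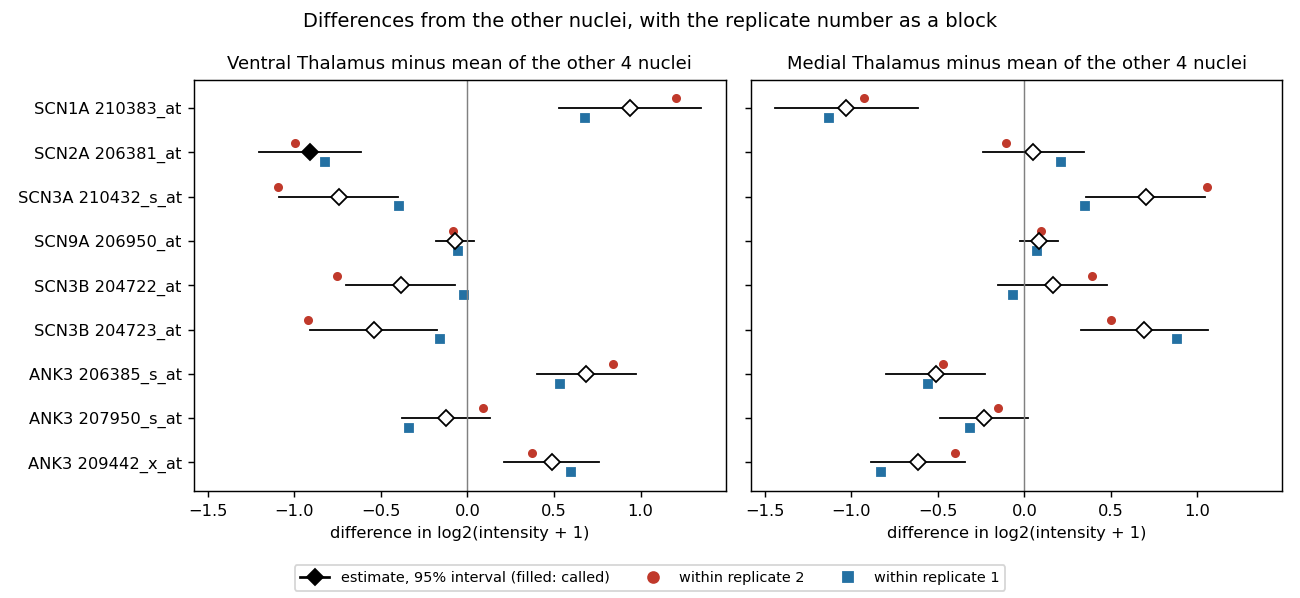
Difference in log2(intensity + 1) from the mean of the other 4 nuclei for each member probe set, in Ventral Thalamus (left) and Medial Thalamus (right), from limma with the replicate number as a block. Diamonds are estimates with 95% intervals, filled where the adjusted p was under 0.05, and circles and squares are the differences within replicate 2 and within replicate 1. SCN2A in Ventral Thalamus, at -0.91, is the filled estimate.

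SCN3A, the alpha subunit of the developing brain, was measured by a probe set that matches more than 1 transcript (suffix _s_at). Among replicate 2 arrays its log2 level was 7.92 in Medial Thalamus, 7.33 in Centre Median, 7.08 in Anterior Thalamus, 6.87 in Pulvinar and 6.21 in Ventral Thalamus. Among replicate 1 arrays it was 7.52 in Medial Thalamus, 7.55 in Centre Median, 7.34 in Anterior Thalamus, 6.87 in Pulvinar and 6.92 in Ventral Thalamus. The means of the replicate sets barely differed for this gene. The nuclei held 80.7% of its sum of squares and the sets 2.99%, with 16.3% left. Single nuclei did differ between the sets, in opposite directions. Replicate 2 minus replicate 1 was -0.72 in Ventral Thalamus and 0.41 in Medial Thalamus, and between -0.26 and 0.01 in the other nuclei. The range over the nuclei was 1.72 in replicate 2 and 0.69 in replicate 1.

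Medial Thalamus exceeded Ventral Thalamus in SCN3A by 1.16 with the block (SE 0.201, adjusted p = 0.0223), a 2.23-fold difference in the opposite direction to SCN1A. It was 1.72 within replicate 2 and 0.59 within replicate 1, and without the block the adjusted p was 1.00. Leaving out a replicate 2 array gave an adjusted p of 0.0669 for Medial Thalamus and 0.207 for Ventral Thalamus. Against the rest, SCN3A stood at -0.74 in Ventral Thalamus (SE 0.159, adjusted p = 0.0862) and at 0.70 in Medial Thalamus (SE 0.159, adjusted p = 0.137), both with the block. The Ventral Thalamus value was -1.10 within replicate 2 and -0.39 within replicate 1, and the Medial Thalamus value 1.05 within replicate 2 and 0.35 within replicate 1. Each therefore moved by over 1.5 times when the replicate 2 array of that nucleus was left out. No neighbours in the order were called, and none had an unadjusted p under 0.05.

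SCN9A gave a log2 level of 3.90 to 4.08 on all 10 arrays, and 0.598% of all probe sets had a mean at or below its own. The files hold no detection calls, so whether the transcript was present cannot be told from it. Its widest gap between nuclei was 0.12, with Medial Thalamus at 4.07 and Ventral Thalamus at 3.95.

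SCN3B encodes a beta subunit that associates with the alpha subunit without a covalent bond. Both of its probe sets had their highest mean in Medial Thalamus and their lowest in Ventral Thalamus. The replicate sets disagreed on the size, and for 204722_at in Medial Thalamus also on the direction. There 204722_at was highest of the nuclei in replicate 2 (7.44) but lowest in replicate 1, at 7.55 against 7.59 to 7.67 in the other nuclei. For probe set 204723_at, the replicate 2 levels were 7.24 in Medial Thalamus, 6.95 in Anterior Thalamus, 7.05 in Pulvinar, 6.84 in Centre Median and 6.10 in Ventral Thalamus. The replicate 1 levels were 8.30 in Medial Thalamus, 7.62 in Anterior Thalamus, 7.44 in Pulvinar, 7.16 in Centre Median and 7.47 in Ventral Thalamus. Ventral Thalamus was thus lowest in replicate 2 and in the middle of replicate 1. Its difference from the rest was -0.54 with the block (SE 0.169, adjusted p = 0.237), made up of -0.92 within replicate 2 and -0.16 within replicate 1. Probe set 204722_at gave similar values in Ventral Thalamus, with -0.75 within replicate 2 and -0.02 within replicate 1 (adjusted p = 0.339 with the block). Without Ventral Thalamus replicate 2 and without the block, both differences turned positive, at 0.14 for each probe set. The replicate sets are then unbalanced, because only the replicate 1 array is left and both probe sets were higher in replicate 1. Within replicate 1 that array did not exceed the mean of the others, so no reversal is read from the change of sign. In Medial Thalamus the differences from the rest were 0.69 for 204723_at (adjusted p = 0.161) and 0.16 for 204722_at (adjusted p = 0.809). The latter was 0.39 within replicate 2 and -0.07 within replicate 1.

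ANK3 encodes ankyrin G, and its 3 probe sets did not run together. Probe set 206385_s_at, whose mean exceeded those of 98.2% of all probe sets, was at a replicate 2 log2 level of 11.20 in Ventral Thalamus, 10.54 in Pulvinar, 10.28 in Centre Median, 10.45 in Anterior Thalamus and 10.15 in Medial Thalamus. Its replicate 1 levels were 10.34 in Ventral Thalamus, 9.87 in Pulvinar, 10.06 in Centre Median, 9.83 in Anterior Thalamus and 9.47 in Medial Thalamus. Ventral Thalamus was highest and Medial Thalamus lowest in both sets.

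Probe set 209442_x_at, whose suffix marks probes that may also match unrelated sequences, kept the same nuclei at its ends. It read 9.09 in Ventral Thalamus, 8.92 in Pulvinar, 8.72 in Centre Median, 8.77 in Anterior Thalamus and 8.48 in Medial Thalamus in replicate 2. It read 9.65 in Ventral Thalamus, 9.12 in Pulvinar, 9.30 in Centre Median, 9.28 in Anterior Thalamus and 8.51 in Medial Thalamus in replicate 1. Both Medial Thalamus arrays lay below the 8 others, as they did for 0.829% of all probe sets.

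Ventral Thalamus exceeded Medial Thalamus with the block by 0.96 for 206385_s_at (SE 0.167, adjusted p = 0.0219) and by 0.88 for 209442_x_at (SE 0.159, adjusted p = 0.027). Between these nuclei 0.708% of all probe sets were called in either direction, and 0.535% of all probe sets were called higher in Ventral Thalamus. After quantile normalisation the adjusted p was 0.0842 for 206385_s_at and 0.0943 for 209442_x_at. Leaving out the replicate 1 array of Medial Thalamus gave 0.105 and 0.17 in that order, and leaving out the replicate 1 or replicate 2 array of Ventral Thalamus gave 0.067 and 0.186 or 0.213 and 0.119. Against the rest, Ventral Thalamus differed by 0.69 for 206385_s_at (SE 0.132, adjusted p = 0.0529 with the block) and by 0.49 for 209442_x_at (adjusted p = 0.152). Medial Thalamus differed by -0.51 (adjusted p = 0.192) and -0.62 (adjusted p = 0.0926).

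The third ANK3 probe set, 207950_s_at, stayed between 7.26 and 7.83 and differed from the rest by -0.12 in Ventral Thalamus (interval -0.38 to 0.13, adjusted p = 0.782 with the block). Its highest mean was in Pulvinar, at 7.61 ± 0.31, and its lowest in Medial Thalamus, at 7.31 ± 0.07 (SD, n = 2 each). The ANK3 probe sets also split by replicate set. Probe set 206385_s_at was higher in replicate 2, at a mean of 10.52 against 9.92 in replicate 1 (adjusted p = 0.000471), whereas 209442_x_at was lower, at 8.80 against 9.17 (adjusted p = 0.00737), both by limma with the block. Probe set 207950_s_at read 7.38 in replicate 2 and 7.60 in replicate 1 (adjusted p = 0.0629).

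**Figure D3:**
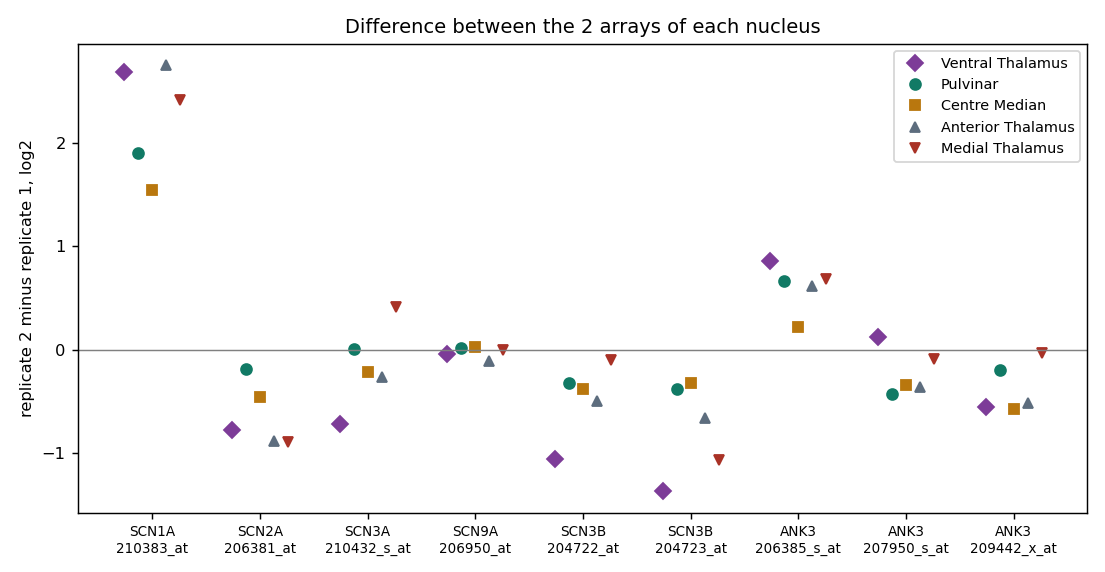
Replicate 2 minus replicate 1 on the log2 scale (vertical axis) for each member probe set (horizontal axis), with 1 symbol per nucleus. SCN1A is above 1.5 in every nucleus, between 1.54 and 2.75, and SCN2A and both SCN3B probe sets are below 0 in every nucleus.

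Of the 9 member probe sets, 2 were higher in replicate 2, 4 were lower and 3 were not called by limma with the block. Over all probe sets 24.1% were called higher and 29.9% lower, so a difference between the sets was common. The members called lower were SCN2A (difference -0.64, adjusted p = 0.000381), both SCN3B probe sets (-0.47 and -0.76, adjusted p = 0.00459 and 0.000555) and ANK3 209442_x_at.

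The SCN1A to SCN2A ratio sets both channels against each other within an array, so it is free of a shift common to the whole array. It is not free of an effect that moves both genes in opposite directions. After subtraction of the set means, the actin 3' over 5' excess correlated at 0.616 with SCN1A and -0.723 with SCN2A over the 10 arrays. The part of this excess in the ratio was not tested. Among replicate 2 arrays the log2 ratio was 2.86 in Ventral Thalamus, 0.97 in Pulvinar, 0.42 in Centre Median, 0.79 in Anterior Thalamus and 0.44 in Medial Thalamus. Among replicate 1 arrays it was -0.60 in Ventral Thalamus, -1.12 in Pulvinar, -1.58 in Centre Median, -2.84 in Anterior Thalamus and -2.87 in Medial Thalamus. Ventral Thalamus had the highest ratio of each set, 2.20 above the mean of the other nuclei within replicate 2 and 1.5 above it within replicate 1. The sets themselves differed by more, with means of 1.09 in replicate 2 and -1.80 in replicate 1, so the ratio of a single array does not place it in a nucleus. Because the signals of different probe sets have no common scale, 0 does not mark equal amounts of the transcripts. The ratio was not tested, since both genes were chosen with earlier results of these data known.

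**Figure D4:**
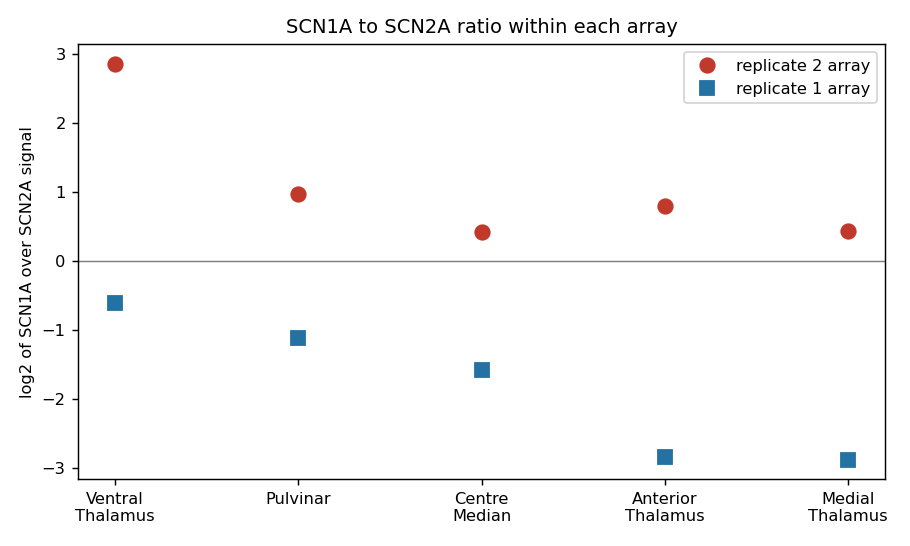
Log2 ratio of SCN1A to SCN2A signal within each array (vertical axis) by nucleus (horizontal axis), with circles for replicate 2 and squares for replicate 1. Ventral Thalamus is the highest of each set, at 2.86 and -0.60, and every replicate 2 array lies above every replicate 1 array.

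Taking the members as a group, the moderated F test across the 5 nuclei called 0 of 9 in either fit, against 0.215% of all probe sets with the block and 0% without it. The members with an unadjusted p under 0.05 numbered 6 with the block and 1 without, beside 8.92% and 0.619% of all probe sets. The members were chosen with earlier results of these data known, and several of their probe sets share a gene. Counts of members beside shares of all probe sets, here and below, are therefore descriptions and not tests of the group. The smallest adjusted p with the block were 0.0584 for SCN1A and 0.0659 for SCN2A. Of the 36 pairs of neighbours in the orders of nuclei, limma called 0 in either fit (6 at an unadjusted p under 0.05 with the block and 0 in the fit that lacks it). Over all probe sets and pairs of nuclei it called 0.114% with the block and 0.00157% without. At an unadjusted p under 0.05 those shares were 7.2% with the block and 0.816% without. Of the 9 contrasts between highest and lowest nucleus, 5 were called with the block and 0 without (4 at an unadjusted p under 0.05), but these pairs were picked by the order itself. With the block, 0.708% of all probe sets were called between Medial and Ventral Thalamus and 0.236% between Centre Median and Ventral Thalamus. Those shares are for fixed pairs. The share called between each probe set's own highest and lowest nucleus is not given here, so the count is not read further. Without the block 0.00525% of all probe sets were called between Centre Median and Ventral Thalamus and 0% between Medial and Ventral Thalamus. In the same fit, 1.53% and 1.65% of all probe sets had an unadjusted p under 0.05 in these contrasts. Between Medial Thalamus and Pulvinar, the ends of the order for ANK3 207950_s_at, 0.0472% were called with the block.

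Set against the rest, limma called 0 of 9 members in each of Medial Thalamus, Centre Median, Pulvinar and Anterior Thalamus with the block. At an unadjusted p under 0.05 the members with the block were 7 of 9 in Ventral Thalamus, 5 in Medial Thalamus, 2 in Centre Median, 2 in Pulvinar and 1 in Anterior Thalamus. Over all probe sets that share was 10.7% in Ventral Thalamus, 9.6% in Medial Thalamus, 5.92% in Centre Median, 3.78% in Pulvinar and 5.63% in Anterior Thalamus. No enrichment of the members is read from this, since they were chosen with earlier results of these data known. The shares of all probe sets called after adjustment were 0.0997% in Medial Thalamus, 0.0944% in Centre Median, and 0% in Pulvinar and Anterior Thalamus. Without the block the members called were also 0 of 9 in each (2 at an unadjusted p under 0.05 in Medial Thalamus and 0 in the others), against 0.0105% of all probe sets in Centre Median and 0% in the other 3. The share of all probe sets at an unadjusted p under 0.05 in Medial Thalamus was then 1.08%.

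Of the 9 probe sets, Ventral Thalamus was highest in both replicate sets for 2 and lowest for 1, and Medial Thalamus was highest for 2 and lowest for 3. Over all probe sets those shares were 7.34% and 6.22% for Ventral Thalamus and 4.95% and 5.36% for Medial Thalamus. The members in question were both leading ANK3 probe sets and SCN2A for Ventral Thalamus. For Medial Thalamus they were SCN3B 204723_at and SCN9A at the top, and SCN1A and the same ANK3 pair at the bottom. SCN9A lay near the floor of the arrays and its nuclei spanned 0.12, so nothing is read from its rank.

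Other transcripts moved with the Ventral Thalamus and Medial Thalamus values. The summed signal of NEFH, NEFM and NEFL, the neurofilament subunits of large axons, had a log2 of 13.83 and 12.99 in the Ventral Thalamus arrays of replicates 2 and 1, against 11.85 to 12.08 and 11.79 to 12.47 in the other nuclei of the same set. For 6 myelin genes it was 14.17 and 13.88, against 13.42 to 13.88 and 12.87 to 13.56. The log2 excess of the actin control's 3' over its 5' signal, which grows with RNA degradation, was highest in Ventral Thalamus in both sets, at 1.64 and 1.22 against 1.15 to 1.36 and -0.09 to 0.46. With that excess as a covariate beside the block, SCN2A in Ventral Thalamus stood at -0.78 (adjusted p = 0.436), SCN1A at 0.86 (0.558), ANK3 206385_s_at at 0.68 (0.522) and ANK3 209442_x_at at 0.13 (0.917). The contrasts of highest and lowest nucleus lost their calls with the covariate for SCN1A (adjusted p = 0.362), SCN2A (0.242) and ANK3 (0.46 and 0.79), and SCN3A kept its own. SCN3A also passed against the rest, at -1.41 in Ventral Thalamus (adjusted p = 0.0204) and 1.06 in Medial Thalamus (0.0127). Without the covariate, Ventral Thalamus stood at -0.91 for SCN2A, 0.94 for SCN1A, 0.69 for ANK3 206385_s_at, 0.49 for ANK3 209442_x_at and -0.74 for SCN3A. Because the excess was highest in Ventral Thalamus in both sets, RNA degradation and nucleus cannot be told apart in this fit. Neither the lost calls nor the gained SCN3A calls are read further. The choroid plexus markers TTR and KL summed to a log2 of 12.19 in Medial Thalamus replicate 2, against 7.34 to 8.5 in the other replicate 2 arrays. With that array left out and the block kept, SCN3A in Medial Thalamus stood at 0.35 (adjusted p = 0.418), against 0.70 with it. SCN3B 204722_at then stood at -0.07 (0.921) and 204723_at at 0.88 (0.0983). SCN1A stood at -1.13 (0.0752), ANK3 206385_s_at at -0.56 (0.202) and ANK3 209442_x_at at -0.83 (0.0414). Of 9 marker lists, 3 had their lowest sum in Medial Thalamus in both sets. For 2 GABAergic markers the log2 sum there was 10.22 and 9.70, against 10.60 to 11.16 and 10.41 to 10.99 in the other nuclei. For 3 thalamic relay markers it was 13.04 and 12.27, against 13.17 to 13.38 and 12.57 to 12.86. The 6 myelin genes summed to 13.42 and 12.87, against 13.68 to 14.17 and 12.97 to 13.88. The sum of 7 astrocyte genes was highest in Medial Thalamus in replicate 2 (13.805, against 13.36 to 13.72) and level with Pulvinar in replicate 1 (both 13.21). The sum of 5 endothelial genes was highest in Ventral Thalamus in both sets, at 9.48 and 9.40 against 9.32 to 9.41 and 9.18 to 9.32. The part of these neurofilament, myelin, GABAergic, relay, astrocyte and endothelial transcripts in the results was not tested. In tissue punches, fewer cells of a type and less RNA per cell cannot be told apart.

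Other sodium channel subunits, the genes of the axon initial segment and node of Ranvier, and genes that modulate the channels were taken from 6 lists with 45 genes, of which 37 were measured. With the probe set of highest mean for each gene, limma called 0 of 37 in any nucleus against the rest, in either fit. With the block the share of all probe sets called was at most 0.336%, so a count of 0 is near the background. In Ventral Thalamus 20 of 37 lay above 0 with a median difference of 0.02, beside -0.02 for all probe sets. Of the other alpha subunits, SCN8A, the main channel of mature nodes, averaged 8.87 over the 10 arrays and differed by 0.14 in Ventral Thalamus (adjusted p = 0.823 with the block). SCN4A, SCN7A, SCN10A and SCN11A, best known from muscle, glia and sensory neurons, differed by 0.10, -0.08, -0.34 and -0.01. SCN2B, a beta subunit linked to the alpha subunit by a disulfide bond, differed by -0.43 (SE 0.141, adjusted p = 0.268).

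The 3 measured fibroblast growth factor homologous factors, which bind the channels from inside the cell, all lay below 0 in Ventral Thalamus, with FGF13 at -0.48 (adjusted p = 0.191), FGF12 at -0.21 and FGF14 at -0.21. Within replicate 1 they were at -0.59, -0.41 and -0.40 in that order, and within replicate 2 at -0.38, -0.01 and -0.03. Scaffold and adhesion genes lay above 0 for 10 of 15. NFASC, the neurofascin of the initial segment and node, was at 0.39 (adjusted p = 0.293) and the spectrin SPTBN1 at 0.32. Their other probe sets did not follow, at -0.04 for NFASC and -0.22 to -0.01 for SPTBN1, all below 0. CNTN1, a contactin, was at -0.50 (adjusted p = 0.201), with -0.84 within replicate 1 and -0.15 within replicate 2. Potassium channel genes lay above 0 for 3 of 7, with KCNA1, a channel of the juxtaparanode, at 0.38 (adjusted p = 0.27) and KCNC1, a channel of fast-spiking cells, at 0.35 (adjusted p = 0.357). Genes of channel turnover and modulation lay above 0 for 5 of 6, with a median of 0.08. Apart from the differences within a replicate set, all of these values come from the fit with the block, and none passed.

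**Figure D5:**
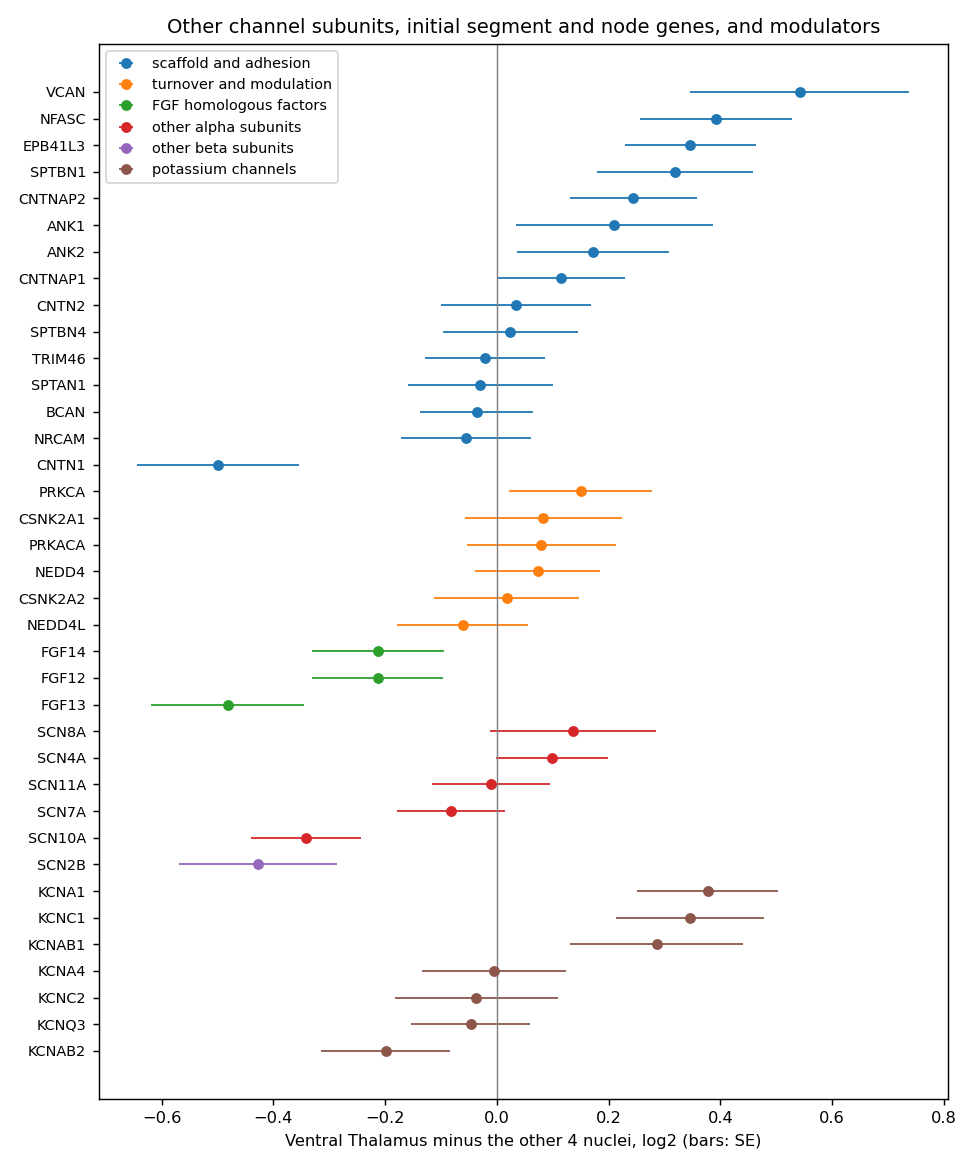
Ventral Thalamus minus the mean of the other 4 nuclei on the log2 scale (horizontal axis, bars are SE) for the 37 measured genes of the 6 lists (vertical axis, colours by list), from limma with the block. Values run from -0.50 for CNTN1 to 0.54 for VCAN, and none was called. VCAN was at 1.02 within replicate 1 and 0.06 within replicate 2.

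The genes whose pattern lay closest to a member were found after the mean of each replicate set had been subtracted, as Pearson r over the 10 arrays among 9532 probe sets with an above-median level. The arrays share their set and tissue, so r is a description. SCN1A was followed most closely by SEH1L (0.979), ATRNL1 (0.972), DST (0.970), ZC3H15 (0.969) and SEPTIN4 (0.968). SCN2A was followed by FEM1B (0.960), HDGFL3 (0.934), B3GALNT1 (0.918), ATN1 (0.911) and NTRK2 (0.901). ANK3 206385_s_at was followed by NDUFA8 (0.988), NDUFA6 (0.980), PPA2 (0.977), TOMM70 (0.973) and NEFH (0.969). NDUFA8 and NDUFA6 encode subunits of respiratory complex I, and TOMM70 encodes a mitochondrial import receptor. On the same scale ANK3 206385_s_at correlated at 0.866 with SCN1A and 0.865 with ANK3 209442_x_at, but at 0.165 with ANK3 207950_s_at, and SCN1A correlated at -0.558 with SCN2A and -0.749 with SCN3A.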

How the data were processed

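Gene expression was measured on 10 arrays, 2 for each of 5 nuclei. The deposited intensity values lie on a linear scale and were made by the authors with RMA (version not stated), according to the submitters' processing notes. Whether the arrays were normalised together is not given in the sources used here, and the lowest intensity differed between the replicate sets. From these, log2(value + 1) was computed, with no filter on low values. The annotation listed 20114 of 22283 probe sets, 1043 of them with several genes, and 68 probe sets were controls. limma 3.58.1 in R 4.3.3 was fitted to all 19065 single-gene probe sets with 1 coefficient per nucleus and a variance trend, and Benjamini-Hochberg adjustment covered all of them within a comparison. Probe sets at an adjusted p under 0.05 were called. The residual degrees of freedom were 5 without the block and 4 with it. The replicate 2 minus replicate 1 differences of the nuclei correlated pairwise at 0.752 to 0.828 across probe sets. The numbers were therefore treated as pairs in the alternative fit, the one with the block. The main fit was the one without it, because no methods name a block. The named genes were all member probe sets, the other sodium channel subunits, called genes of the pathway lists (none was called, so list members with values are examples chosen after their values were seen) and the 5 genes most like SCN1A, SCN2A and ANK3. The members and lists were chosen with earlier results of these data known. The fits were tested on simulated data. Figures were drawn with matplotlib 3.10.9 in Python 3.11.15. No depth applies to arrays, and their number limits the precision. No genome or sequence was used, so no coordinates are given.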

Additional observations from a re-analysis of the deposited data

How the results depend on the processing

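Without the block the counts of called members were 0 in every comparison, and they stayed 0 under quantile normalisation, a pseudocount of 16, a filter on low values, 1 probe set per gene and each left-out array. With the replicate block the count in Ventral Thalamus was 1 (SCN2A), also with quantile normalisation and with a pseudocount of 16. It was 3 with the filter and 3 with 1 probe set per gene, where SCN1A and ANK3 206385_s_at joined SCN2A, and 1 with the actin covariate (SCN3A). Over left-out arrays it ran from 0 to 4, with the most (SCN3A beside the same 3) when Medial Thalamus replicate 2 was left out. In Medial Thalamus the blocked count was 1 with the filter (SCN1A), 1 with the actin covariate (SCN3A) and 0 to 1 over left-out arrays. For the F test it was 2 with the filter, 2 with 1 probe set per gene, 1 with the actin covariate and 0 to 2 over left-out arrays. For neighbouring nuclei it was 1 with the filter and 0 to 1 over left-out arrays. Fewer probe sets are tested with the filter or 1 probe set per gene. The share of all probe sets called under each of these settings is not given here, so the counts are not read as a result about the members. The cause of the other moves was not tested.

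Of 846 values recomputed for 29 single differences, 15 changed sign, none of them past the threshold, and 90 passed the threshold that the fit without the block had missed. Leaving out 1 array without the block moved SCN1A between -1.95 and 0.80 in Anterior Thalamus, between -2.24 and 0.18 in Medial Thalamus and between -0.40 and 2.28 in Ventral Thalamus, since the replicate sets are then unbalanced. SCN2A in Medial Thalamus, near 0 at 0.05, ran from -0.40 to 0.50 over left-out arrays, and was -0.021 with the actin covariate beside the block. With the block and 1 array left out it was -0.11 (Medial Thalamus replicate 1) and -0.020 (Pulvinar replicate 1), and without the block -0.06, -0.0063 and -0.05 for single arrays of other nuclei. Without the block, SCN3B in Ventral Thalamus ran from -0.91 to 0.14 for 204722_at and from -1.23 to 0.14 for 204723_at. Medial minus Ventral Thalamus ran from -0.088 to 0.97 for 204722_at. The replicate sets are unbalanced in these fits too, so the changes of sign are not read as reversals. With the block, SCN3B 204722_at was -0.066 in Medial Thalamus when its replicate 2 was left out, and ANK3 207950_s_at was 0.092 in Ventral Thalamus when its replicate 1 was left out. The mean SCN1A to SCN2A ratio of each nucleus moved by less than its SD in all settings. That SD (1.41 to 2.57) contains the difference between the replicate sets, so this check could hardly fail and nothing is read from it. SCN1A and SCN2A have 1 probe set each, so no other pair of probe sets could be used for it. Between highest and lowest nucleus, the block raised the count of called members from 0 to 5 of 9. No share over all probe sets matches this count, since the pairs were picked by each order. Apart from those contrasts and SCN2A in Ventral Thalamus, the block changed no member call when no other setting was altered.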
